A study of Mus musculus with 9 samples.

Results

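The genes described here, 10 in number, encode the intracellular arm of the TGF-β and activin pathway, namely the transducers Smad2, Smad3 and Smad4, the inhibitory Smad6 and Smad7, the nuclear corepressors Ski, Skil and Tgif1, and the ubiquitin ligases Smurf1 and Smurf2. They were picked by gene symbol as parts of the pathway, and all 10 were found among the 24346 gene symbols of the files. RNA of 3 kinds of sorted lung macrophages was sequenced in triplicate. Ctrl-AM were alveolar macrophages (AMs) of C57BL/6 mice that had received vehicle, Tumor-AM were AMs of C57BL/6 mice whose left lung had been injected with Lewis lung carcinoma cells carrying tdTomato (LLC, a line of this mouse strain), and Tumor-macrophage were the tumor-associated macrophages (TAMs) of such mice. All mice were at postnatal week 10, and the labels name no engineered allele. Each population came from 3 mice. All cells were sorted as CD45+ and autofluorescent, AMs as Siglec-F+ and TAMs as Siglec-F- cells with general macrophage markers. The labels give no batch and do not say whether Tumor-AM and Tumor-macrophage samples with the same number came from the same mouse, so p-values measure only the spread between these samples.

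Ligands of the TGF-β and activin group bind pairs of serine/threonine kinase receptors, which phosphorylate Smad2 and Smad3. These join Smad4 and enter the nucleus, where they act on target genes together with coactivators or with corepressors such as Ski, Skil and Tgif1. Smad6 and Smad7 are transcribed in response to the pathway and block it at the receptors, and Smurf1 and Smurf2 mark receptors and Smads for degradation. TGF-β signalling is needed for the development and upkeep of AMs. RNA levels of these genes do not report phosphorylation or location of the proteins, which carry most of the regulation of the pathway.

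The sort markers followed the labels. Siglecf, the gene of the AM sort marker, had mean levels of 201, 172 and 0.651 FPKM (fragments per kilobase of exon, corrected for sequencing depth) in Ctrl-AM, Tumor-AM and Tumor-macrophage, and Itgam, the gene of CD11b, was at 1.17, 4.20 and 147. Estimated depth ran from 11000000 to 13950000 reads per sample. Summed levels of 7 endothelial marker genes lay between 5.39 and 11.2 FPKM in all 9 samples, and those of 7 fibroblast genes between 3.72 and 17.1 except for 19.4 and 85.7 in Tumor-AM 1 and 3. The 7 epithelial genes summed to 125 to 262 FPKM in control AMs, 59.4 to 113 in tumor AMs and 20.4 to 70.9 in TAMs. Lymphocyte markers and Tumor-macrophage 2 are described beside the results they move with.

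The sequences before the transcription start are shown for 4 of the genes that were higher in Tumor-macrophage and that have an entry in the RefSeq promoter table (assembly GRCm38.p6). Smad3 and Smad6 are neighbours on chromosome 9, both on the minus strand, and Smad3 (chr9:63646767-63757994) and Smad6 (chr9:63953076-64022059) are 195.1 kb apart with no other gene of the files between them. Smurf1 is on chromosome 5 (chr5:144876495-144965847, minus strand) and Tgif1 on chromosome 17 (chr17:70844205-70853546, minus strand). The windows hold the 250 bases upstream of the start, at chr9:63757995-63758244 for Smad3, chr9:64022060-64022309 for Smad6, chr5:144965831-144966080 for Smurf1 and chr17:70853533-70853782 for Tgif1 (the most upstream of its 5 starts), each read 5′ to 3′ on the minus strand. Capitals mark CAGAC, a word that Smad3 and Smad4 are known to bind, or its reverse complement GTCTG.
Smad3: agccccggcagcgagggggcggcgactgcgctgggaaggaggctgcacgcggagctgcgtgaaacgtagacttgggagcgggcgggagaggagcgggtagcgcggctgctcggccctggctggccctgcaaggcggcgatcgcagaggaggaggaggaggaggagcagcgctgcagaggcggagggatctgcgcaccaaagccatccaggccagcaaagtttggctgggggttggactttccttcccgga
Smad6: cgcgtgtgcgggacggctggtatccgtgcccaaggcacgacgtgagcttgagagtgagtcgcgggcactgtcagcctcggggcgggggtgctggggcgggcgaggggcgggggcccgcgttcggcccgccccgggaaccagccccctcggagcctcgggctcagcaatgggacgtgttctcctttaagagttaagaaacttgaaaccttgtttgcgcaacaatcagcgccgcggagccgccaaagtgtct
Smurf1: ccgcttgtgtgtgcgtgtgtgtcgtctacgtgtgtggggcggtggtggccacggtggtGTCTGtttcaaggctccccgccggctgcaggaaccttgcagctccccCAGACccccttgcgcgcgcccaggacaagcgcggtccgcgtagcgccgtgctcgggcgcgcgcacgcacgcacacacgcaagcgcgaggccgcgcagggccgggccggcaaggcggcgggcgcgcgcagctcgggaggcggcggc
Tgif1: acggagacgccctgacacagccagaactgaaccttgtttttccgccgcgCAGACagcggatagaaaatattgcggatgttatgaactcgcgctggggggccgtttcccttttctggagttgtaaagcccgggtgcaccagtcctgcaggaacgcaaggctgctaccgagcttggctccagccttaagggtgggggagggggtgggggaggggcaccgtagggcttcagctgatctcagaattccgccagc

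The Smurf1 window held CAGAC once on each strand, at -145 to -141 on the gene's strand and at -192 to -188 on the other, counted from the start. The printed Tgif1 window held it once, at -201 to -197. CAGAC on either strand occurs in 42.2% of the 32851 RefSeq promoters, so these matches are common ones. The Smad3 and Smad6 windows held neither CAGAC nor the other words searched on both strands, GGCGCC (a GC-rich Smad word, in 9.59% of promoters) and GAGGAAG (a word bound by the macrophage factor PU.1, in 10.6%), which says only that these letters are not in these windows. The windows of Smurf2 and Ski, both lower in TAMs than in control AMs, are not printed. Smurf2 held CAGAC at -203 to -199, GGCGCC at -234 to -229 and -147 to -142, and GAGGAAG at -155 to -149. Ski held GGCGCC at -220 to -215. Windows of other Tgif1 starts are not printed either, and which start these cells use was not tested. That at chr17:70851735-70851984 held CAGAC at -191 to -187 and, on the other strand, at -59 to -55. That at chr17:70849791-70850040 held CAGAC at -17 to -13 and, on the other strand, GAGGAAG at -47 to -41.

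Levels of the 10 genes spanned a wide range. Tgif1 was the highest in every group, above 93.3%, 95.4% and 95.9% of the 10686 tested genes in Ctrl-AM, Tumor-AM and Tumor-macrophage, and it was followed by Skil and Smad4. Smad3 was the lowest in both AM groups and lay above 1.54% and 0.646% of tested genes there, but above 22.6% in Tumor-macrophage. The order of mean FPKM in Ctrl-AM was Tgif1, Skil, Smad4, Ski, Smad2, Smurf2, Smurf1, Smad6, Smad7 and Smad3, and the samples overlapped between Smad4 and Ski, between Smurf2 and Smurf1 and between Smad6 and Smad7. Tumor-AM kept this order except that Smurf1 stood above Smurf2 and Smad7 above Smad6, and the overlap was between Smad7 and Smad6. In Tumor-macrophage the order was Tgif1, Skil, Smad4, Smurf1, Ski, Smad2, Smurf2, Smad3, Smad6 and Smad7, with overlap among neighbours from Smurf1 to Smad2 and from Smad3 to Smad7.

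**Figure D1:**
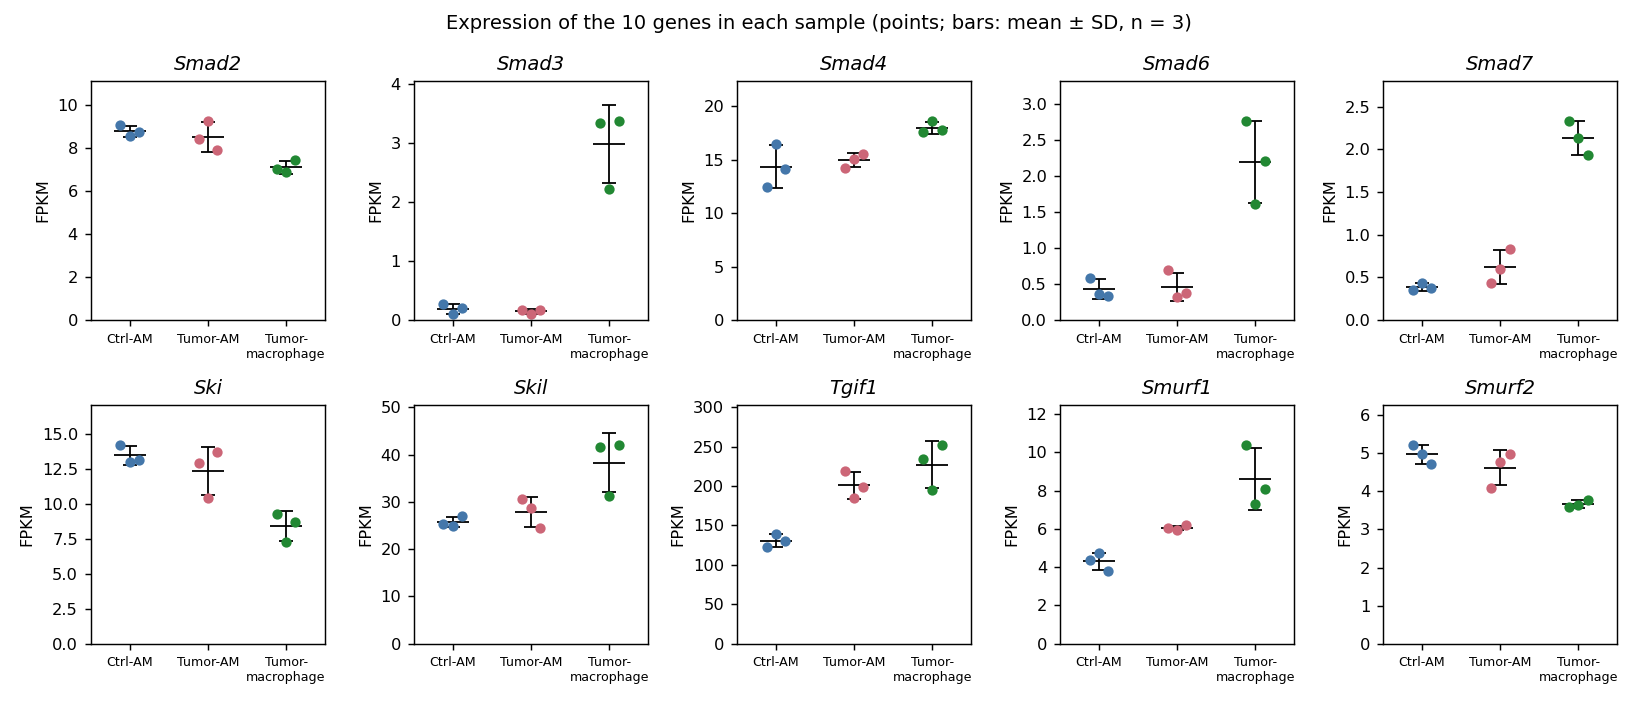
FPKM (vertical axes, from 0) of the 10 genes in each of the 9 samples (points, 3 per group), with the mean and SD of each group as bars. Smad3, Smad6 and Smad7 lie below 1 FPKM in all 6 AM samples and above 1.6 FPKM in the 3 Tumor-macrophage samples, while Tgif1 is higher in both tumor groups than in Ctrl-AM.

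Smad3 had the widest change of the 10 genes between AMs and TAMs, and Smad2 a small one in the other direction. Smad2, the more abundant of these receptor-regulated Smads in every sample, measured 9.04, 8.52 and 8.74 FPKM in the Ctrl-AM samples, 8.39, 9.25 and 7.89 in the Tumor-AM samples, and 6.99, 6.86 and 7.43 in the TAM samples. The 3 TAM samples were the lowest of the 9. Smad3 measured 0.267, 0.102 and 0.205 FPKM in the Ctrl-AM samples, 0.177, 0.0980 and 0.164 in the Tumor-AM samples, and 3.35, 2.22 and 3.38 in the TAM samples. All TAM samples were far above all AM samples, which overlapped each other. An estimated 5.99 to 15.8 reads lay behind each of the AM values and 122 to 202 behind the TAM values, so that the AM levels are known only coarsely.

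Next, the changes were tested on log2(FPKM + 1), a scale that understates the change of low genes, with limma across all 10686 tested genes and Benjamini-Hochberg adjustment. Smad3 was higher in TAMs than in Tumor-AM by 1.78 ± 0.15 (SE, adjusted p = 3.09e-06), which is a 20.4-fold ratio of mean FPKM, and than in Ctrl-AM by 1.73 ± 0.15 (adjusted p = 3.14e-06, a 15.6-fold ratio). With a pseudocount of 0.1 in place of 1 the difference from Tumor-AM was 3.64. Smad2 was lower in TAMs than in control AMs by a log2 change of -0.27 ± 0.09 (adjusted p = 0.0321). This call was lost without any 1 of the Ctrl-AM samples (adjusted p = 0.0931, 0.0596 and 0.0742 without samples 1, 2 and 3) and without Tumor-macrophage 1 (0.0689) or 2 (0.0753). Against Tumor-AM the log2 change of Smad2 was -0.23 ± 0.09 (adjusted p = 0.0679) although the samples did not overlap, and it was called with no filter (0.0319), TPM (0.0187), quantile normalization (0.0258) or a constant prior variance (0.0482). Neither Smad2 (log2 change -0.04, 95% interval -0.25 to 0.17, adjusted p = 0.842) nor Smad3 (-0.05, interval -0.38 to 0.28, adjusted p = 0.871) passed the test between Tumor-AM and Ctrl-AM.

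The sum of Smad2 and Smad3, taken per transcript length as FPKM, was close between populations, at 8.63 to 9.31 FPKM in control AMs, 8.06 to 9.35 in tumor AMs and 9.08 to 10.8 in TAMs. Smad3 made up 1.19% to 2.87% of this sum in control AMs, 1.05% to 2.07% in tumor AMs and 24.5% to 32.4% in TAMs. Hence 1 Smad3 unit stood against 33.9 to 94.4 of Smad2 in the 6 AM samples and against 2.09 to 3.09 in TAMs. These ratios describe the samples and were not tested apart from the single genes.

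**Figure D2:**
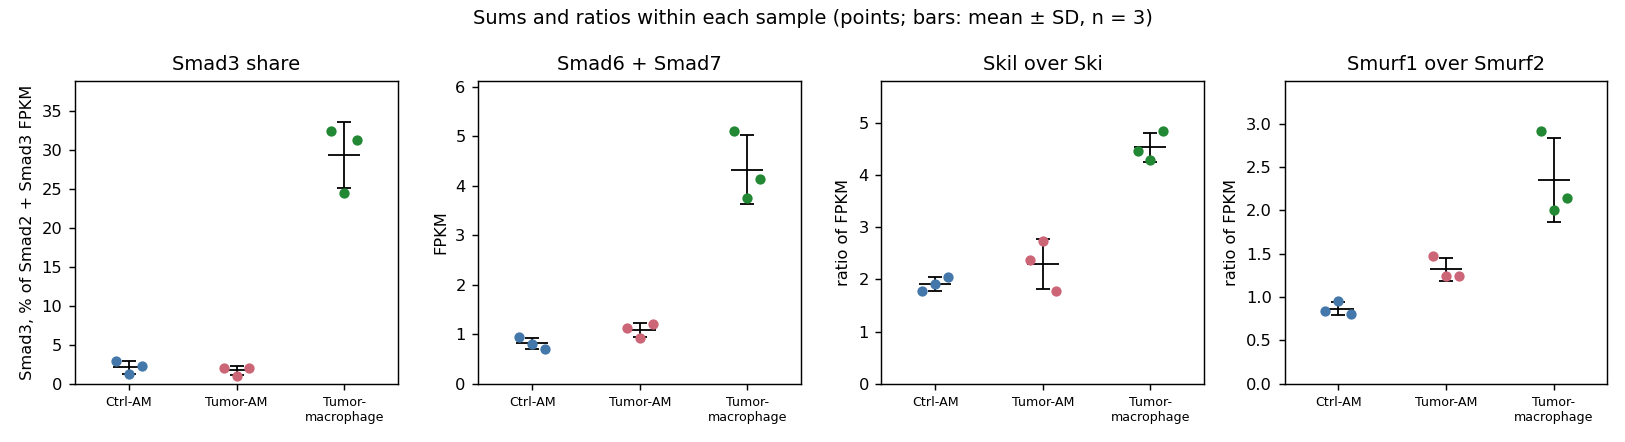
Sums and ratios of FPKM within each sample (points, 3 per group) with the mean and SD of the group, all axes from 0. From left to right, the share of Smad3 in Smad2 plus Smad3 (percent), the sum of Smad6 and Smad7 (FPKM), Skil over Ski and Smurf1 over Smurf2 (ratios), and in each panel the 3 Tumor-macrophage samples lie above all AM samples.

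Smad4, the common partner of the receptor-regulated Smads, measured 12.4, 16.5 and 14.2 FPKM in the Ctrl-AM samples, 14.3, 15.1 and 15.5 in the Tumor-AM samples, and 17.6, 18.6 and 17.7 in the TAM samples. The TAM samples were the highest of the 9, and the AM groups overlapped. Smad4 was higher in TAMs than in control AMs by a log2 change of 0.31 ± 0.10 (limma adjusted p = 0.0246), but the call was lost without Ctrl-AM 1 (0.101) or 3 (0.0636), without Tumor-macrophage 2 (0.0628) and with no filter (0.0523). Under TPM scaling, which sets every sample to the same sum and shifts the median of all genes in this comparison to -0.22, the log2 change of Smad4 was 0.09 (adjusted p = 0.472). Against Tumor-AM the log2 change was 0.25 ± 0.10 (adjusted p = 0.0680), called without Ctrl-AM 1 (0.0472) or 2 (0.0442).

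The inhibitory Smads were low in AMs and higher in TAMs. Smad6, which is best known as an inhibitor of BMP signalling, measured 0.589, 0.361 and 0.336 FPKM in the Ctrl-AM samples, 0.688, 0.317 and 0.370 in the Tumor-AM samples, and 2.76, 1.61 and 2.2 in the TAM samples. Smad7, which acts on TGF-β, activin and BMP receptors, measured 0.346, 0.438 and 0.371 FPKM in the Ctrl-AM samples, 0.429, 0.603 and 0.828 in the Tumor-AM samples, and 2.33, 2.13 and 1.93 in the TAM samples. For both genes every TAM sample was above every AM sample and the AM groups overlapped, and an estimated 11 to 46.1 reads lay behind each AM value against 50.1 to 105 in TAMs. Relative to Tumor-AM, the log2 change in Tumor-macrophage was 1.12 ± 0.17 for Smad6 (limma adjusted p = 0.000253, a 4.78-fold ratio of mean FPKM) and 0.96 ± 0.13 for Smad7 (adjusted p = 0.000143, 3.44-fold). Relative to Ctrl-AM it was 1.15 ± 0.17 for Smad6 (adjusted p = 0.000183) and 1.18 ± 0.13 for Smad7 (adjusted p = 2.58e-05). Between the AM groups, Smad7 had a log2 change of 0.22 (95% interval -0.08 to 0.51, adjusted p = 0.352) and Smad6 one of 0.03 (interval -0.35 to 0.40, adjusted p = 0.951).

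Smad3, Smad6 and Smad7 reached 1 FPKM only in Tumor-macrophage samples, and a gene enters the test only with at least 1 FPKM in 3 samples. They had to differ once they had passed, so their calls lend no weight to any count over the 10 genes. The other 7 genes were at 1 FPKM or more in all 9 samples. The calls of Smad3, Smad6 and Smad7 against both AM groups held under each of the 17 alternatives to the fit that tested them, while a 2-fold minimum removed that of Smad7 against Tumor-AM. Tumor-macrophage 2 was the lowest of the 3 TAM samples for Smad3 and Smad6, as for Smad2, Ski, Skil, Smurf1 and Tgif1. Without it the log2 change from Tumor-AM was 1.93 for Smad3 and 1.26 for Smad6. The 6 lymphocyte markers found, of 7 listed, moved in the same direction. They summed to 15.4 to 19.5 FPKM in control AMs, 7.33 to 20.8 in tumor AMs, and 56.2, 33.4 and 61.3 in Tumor-macrophage 1, 2 and 3, and none was at 0 throughout a group. The B cell gene Cd79a was at 7.29, 2.65 and 17.1 FPKM in the 3 groups. Cells of other types and their part in the Smad3, Smad6 and Smad7 levels were not tested, and in bulk samples fewer cells of a type and less RNA per cell cannot be told apart.

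The corepressors moved in different directions. Tgif1, a homeodomain protein that recruits histone deacetylases to Smad complexes, measured 122.8, 139 and 129.8 FPKM in the Ctrl-AM samples, 219.2, 184.9 and 198.9 in the Tumor-AM samples, and 233.8, 194.5 and 252.6 in the TAM samples. All 6 samples of tumor-bearing lungs lay above all controls, and the Tumor-AM and TAM samples overlapped. Tgif1 was higher in Tumor-AM than in the controls by a log2 change of 0.62 ± 0.10 (limma adjusted p = 0.00483, a 1.54-fold ratio), and it stayed past the threshold in all 18 alternatives to the fit (not with a 2-fold minimum), at 0.48 to 0.68 (adjusted p 0.00179 to 0.0489). The log2 change from Ctrl-AM to Tumor-macrophage was 0.79 ± 0.10 (adjusted p = 8.33e-05). Between the populations of tumor-bearing lungs it was 0.17 ± 0.10 (interval -0.06 to 0.40, adjusted p = 0.204), and without Tumor-macrophage 2 it was 0.28 (adjusted p = 0.0302).

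Ski, the founding member of its corepressor family, measured 14.3, 13 and 13.2 FPKM in the Ctrl-AM samples, 13, 10.5 and 13.7 in the Tumor-AM samples, and 9.31, 7.25 and 8.72 in the TAM samples. Skil, its close relative (also called SnoN) and a target of the pathway, measured 25.4, 24.9 and 27.1 FPKM in the Ctrl-AM samples, 30.7, 28.6 and 24.5 in the Tumor-AM samples, and 41.6, 31.2 and 42.1 in the TAM samples. The TAM samples were the lowest for Ski and the highest for Skil, with no overlap with AMs for either gene. Between Tumor-AM and Tumor-macrophage, Ski fell by a log2 change of -0.50 ± 0.12 (limma adjusted p = 0.00594) and Skil rose by 0.43 ± 0.12 (adjusted p = 0.0140). The Skil call was lost with no filter (0.0690), without Tumor-AM 3 (0.0565) and without Tumor-macrophage 1 (0.0520) or 3 (0.0561). Relative to Ctrl-AM, the TAM changes were -0.63 ± 0.12 for Ski (adjusted p = 0.00137) and 0.54 ± 0.12 for Skil (adjusted p = 0.00364), and both held under all 18 alternatives to the fit but not with a 2-fold minimum. Skil over Ski was 1.78 to 2.05 in control AMs, 1.78 to 2.73 in tumor AMs and 4.29 to 4.83 in TAMs. Between the AM groups neither passed the test (Ski -0.12, adjusted p = 0.605, and Skil 0.11, adjusted p = 0.662).

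The ubiquitin ligases also moved apart. Smurf1, which acts mainly on BMP Smads and, through Smad7, on TGF-β receptors, measured 4.37, 4.72 and 3.81 FPKM in the Ctrl-AM samples, 6.04, 5.93 and 6.18 in the Tumor-AM samples, and 10.4, 7.33 and 8.06 in the TAM samples. The 3 groups did not overlap, in the order Ctrl-AM, Tumor-AM, Tumor-macrophage. Smurf2, which acts on Smad2, Ski family proteins and, with Smad7, on TGF-β receptors, measured 5.23, 4.97 and 4.72 FPKM in the Ctrl-AM samples, 4.10, 4.76 and 4.99 in the Tumor-AM samples, and 3.58, 3.65 and 3.77 in the TAM samples. Here the TAM samples were the lowest, and the AM groups overlapped. Smurf1 over Smurf2 accordingly ran from 0.806 to 0.950 in control AMs, from 1.24 to 1.47 in tumor AMs and from 2.01 to 2.91 in TAMs.

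Smurf1 was higher in TAMs than in control AMs by a log2 change of 0.85 ± 0.13 (limma adjusted p = 0.00028) and than in Tumor-AM by 0.43 ± 0.13 (adjusted p = 0.0195). The latter was lost with no filter (0.0531), without Tumor-AM 2 (0.0507) and without Tumor-macrophage 1 (0.0667). Between Tumor-AM and Ctrl-AM the log2 change of Smurf1 was 0.42 ± 0.13 (interval 0.12 to 0.71, adjusted p = 0.0760). It did not pass, but did with the 2 AM groups alone (0.0479) and without Tumor-macrophage 1 (0.0403). Smurf2 was lower in TAMs than in control AMs by a log2 change of -0.36 ± 0.11 (adjusted p = 0.0160), lost without Ctrl-AM 1 (0.0560). Against Tumor-AM it was -0.26 ± 0.11 (adjusted p = 0.0634), which passed with no filter (0.0355), TPM (0.0194), quantile normalization (0.0239), a constant prior variance (0.0329) or without Tumor-AM 1 (0.0433). Between the AM groups it was -0.09 (adjusted p = 0.662).

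**Figure D3:**
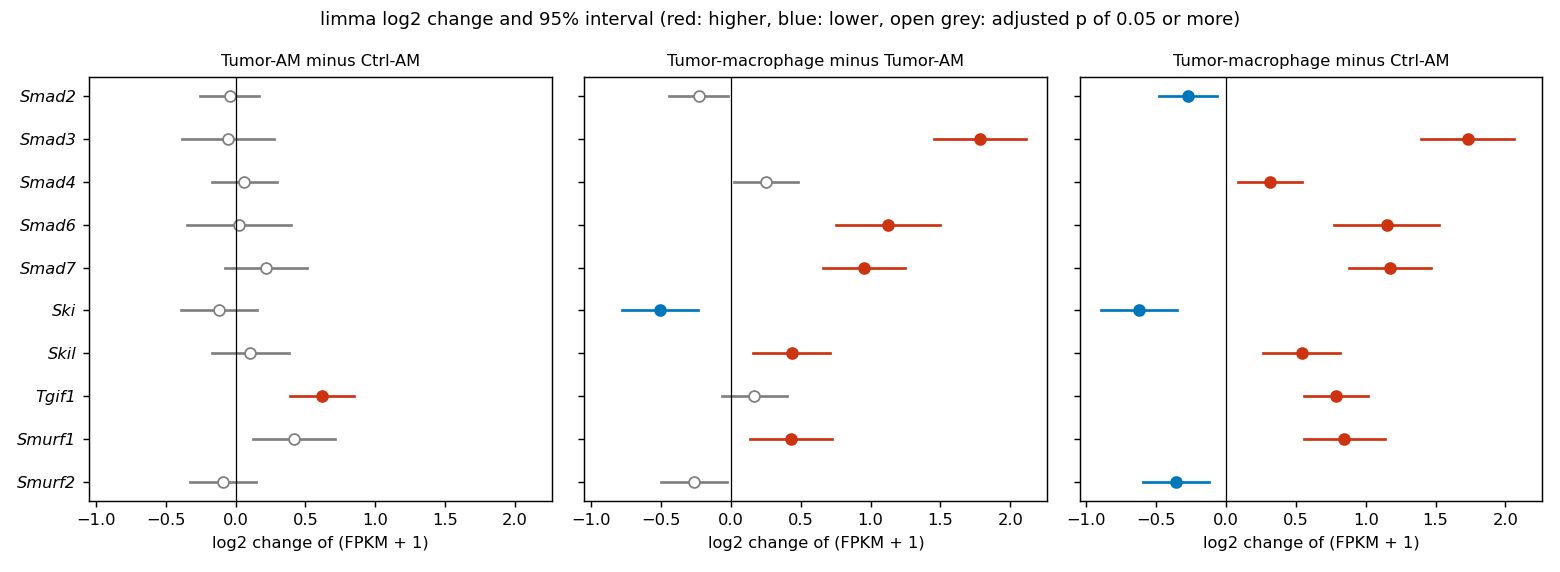
Log2 change of FPKM + 1 (horizontal axes) with its 95% interval for the 10 genes in the 3 comparisons, red for higher, blue for lower and open grey for an adjusted p of 0.05 or more. Tgif1 is the only gene called between the AM groups (0.62), and Smad3 has the widest change in both comparisons with Tumor-macrophage (1.78 and 1.73).

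Counted together, 1 of the 10 genes was called between Tumor-AM and Ctrl-AM, against 10.3% of all tested genes (7.11% higher and 3.18% lower), and Smurf1 and Tgif1 had no overlap between these groups, against 32.3%. With TAMs set against Tumor-AM, 5 were called higher and 1 lower, against 24.2% higher and 24.4% lower (48.6% in all) of the tested genes, and among the 7 genes expressed in all samples 2 were higher and 1 lower. The groups did not overlap for 9 of the 10 and for 6 of those 7, against 55.3%. The split was 3 higher and 3 lower with no filter, and 5 higher and 3 lower under TPM, quantile normalization or a constant prior variance. Between Tumor-macrophage and Ctrl-AM all 10 were called, 7 higher and 3 lower, against 54.8% of all tested genes in either direction (27.7% higher and 27.1% lower), with 4 higher and 3 lower among those 7. None of the 10, nor of those 7, overlapped between these groups, against 62.3% of tested genes without overlap. The median log2 change of the 10 genes was 0.04, 0.34 and 0.66 in the 3 comparisons, and of those 7 genes 0.06, 0.17 and 0.31, beside 0.01, 0.00 and -0.01 for all tested genes. These comparisons share samples in pairs and are not independent of each other.

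Next, the rest of the pathway was described. Of 23 ligands, receptors and antagonists listed, 15 passed the filter on low values. Inhba, the gene of the activin A subunit on which the study centred, measured 3.39, 6.53 and 2.00 FPKM in the Ctrl-AM samples, 39.5, 24.5 and 32.7 in the Tumor-AM samples, and 10.8, 10.9 and 7.52 in the TAM samples. It was the only one of the 15 called between the AM groups (log2 change 2.82, limma adjusted p = 0.000506). In TAMs 4 were higher and 6 lower than in Tumor-AM, against 24.2% and 24.4% of all tested genes. Tgfb3, a TGF-β ligand (3.05), Eng, an auxiliary receptor of endothelial cells and activated macrophages (2.51), and Acvrl1, a type I receptor that signals to the BMP Smads (0.91), were higher. Gdf15, a stress-induced ligand (-1.85), and Tgfb2 (-1.01) were lower. Tgfb3, Eng, Acvrl1, Gdf15 and Tgfb2 kept these directions against Ctrl-AM (3.29, 2.92, 1.1, -1.73 and -0.87). There 5 were higher and 5 lower (against 27.7% and 27.1%), and Bmpr1a, a type I BMP receptor, was among the lower (-0.97, adjusted p = 0.0014). Tgfb3 was below 1 FPKM in all AM samples, and Tgfb2 and Bmpr1a were below it in all TAM samples. Acvr1b, an activin receptor called lower against both AM groups, was at 0.907, 0.513 and 1.02 FPKM in the TAM samples. Tgfb3, Tgfb2, Bmpr1a and Acvr1b passed the filter only through the other population, so their calls lend no weight to the counts.

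The BMP Smads are the other receptor-regulated branch, and Smad6 and Smurf1 act on it. Smad1 measured 23.9, 26.6 and 27.6 FPKM in the Ctrl-AM samples, 19.9, 19.6 and 19.4 in the Tumor-AM samples, and 14.3, 11.5 and 14.1 in the TAM samples. The 3 groups did not overlap, and each step was lower (log2 change -0.39, limma adjusted p = 0.0350 from Ctrl-AM to Tumor-AM, and -0.53, adjusted p = 0.00115 from there to TAMs). The call between the AM groups was lost with no filter (0.0985) and without any 1 of the 6 AM samples (adjusted p 0.0548 to 0.130). Smad5 was not called in any of the 3 comparisons, and Smad9 did not pass the filter.

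Of 27 other regulators of Smads and their receptors, 23 passed the filter, and in the 2 comparisons with Tumor-macrophage 6 were higher and 0 lower than in Tumor-AM (0 lower also at an unadjusted p of 0.05 in limma, against 24.2% higher and 24.4% lower of all tested genes) and 7 higher and 2 lower than in Ctrl-AM (against 27.7% and 27.1%). Bambi, a decoy receptor of the pathway, measured 0.202, 0.133 and 0.487 FPKM in the Ctrl-AM samples, 1.43, 0.726 and 1.24 in the Tumor-AM samples, and 4.79, 3.66 and 4.58 in the TAM samples. It was the only one called between the AM groups (log2 change 0.74, limma adjusted p = 0.0230) and was higher again in TAMs (1.33 above Tumor-AM, adjusted p = 8.15e-05). The first of these calls was lost with no filter (0.107), without Ctrl-AM 1 (0.0844) or 2 (0.0817) and without Tumor-AM 1 (0.0781) or 3 (0.0747). Wwp1 (1.68) and Nedd4l (1.00), ubiquitin ligases of the same family as the Smurfs, Pmepa1, a Smad target that binds and sequesters Smads (2.03), and the coactivator Crebbp (0.54) were likewise higher in TAMs than in tumor AMs. The call of Crebbp was lost with no filter (0.0719), without Tumor-AM 1 (0.0726) or 2 (0.0549) and without Tumor-macrophage 1 (0.0694). Against Ctrl-AM the log2 changes were 1.73 for Wwp1, 2.07 for Bambi, 1.41 for Nedd4l, 1.43 for Pmepa1 and 0.30 for Fkbp1a, which binds type I receptors and was at 0.07 under TPM (adjusted p = 0.457). Nedd4l measured 0.46, 0.44 and 0.40 FPKM in the Ctrl-AM samples and 0.99, 0.71 and 1.05 in the Tumor-AM samples. Bambi and Nedd4l thus passed the filter only through the TAM samples. Their calls in TAMs lend no weight to the counts of regulators.

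**Figure D4:**
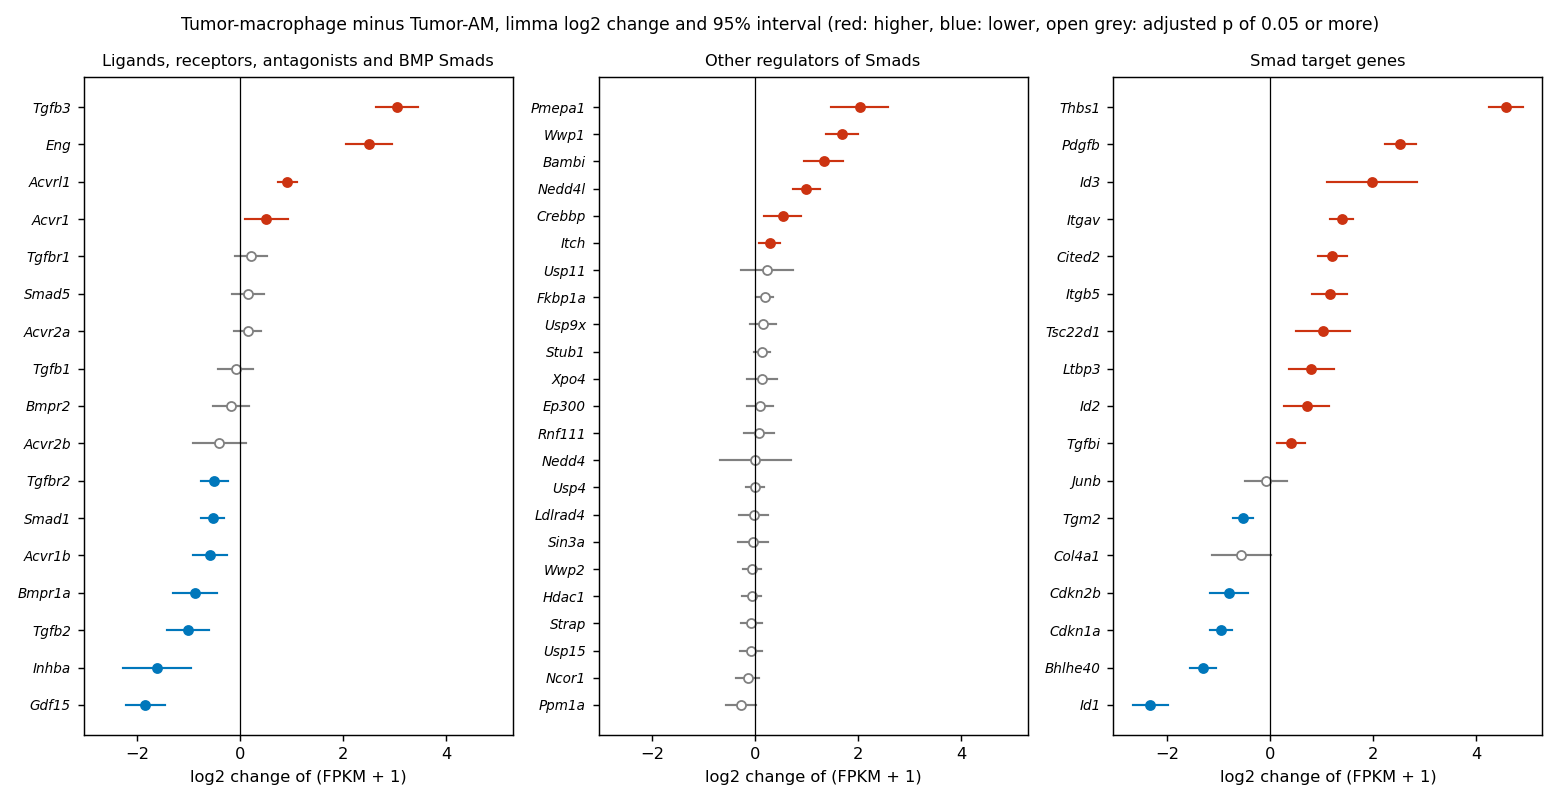
Log2 change of FPKM + 1 (horizontal axes) between Tumor-macrophage and Tumor-AM with its 95% interval for the tested ligands, receptors and BMP Smads, other regulators of Smads, and Smad target genes, in the colors red for higher, blue for lower and open grey for an adjusted p of 0.05 or more. Of the regulators 6 are higher and 0 lower, and the target genes run from Thbs1 (4.58) to Id1 (-2.33). Among these regulators Bambi and Nedd4l passed the filter only through the Tumor-macrophage samples.

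Finally, 18 of 20 listed Smad target genes passed the filter. Between Tumor-AM and Ctrl-AM 6 were higher and 0 lower, against 7.11% and 3.18% of all tested genes, among them Junb (log2 change 1.11, limma adjusted p = 0.00434), an AP-1 subunit, Id2 (0.99, adjusted p = 0.0109), an inhibitor of helix-loop-helix factors, Thbs1 (0.91, adjusted p = 0.00440), an activator of latent TGF-β, Cdkn1a (0.56, adjusted p = 0.00609), the cell cycle inhibitor p21, and Tgm2 (0.44, adjusted p = 0.0107), a transglutaminase. At an unadjusted p of 0.05 in limma 2 of the 18 were lower, among them Id1 (log2 change -0.46, unadjusted p = 0.0129). With no filter on low values limma called 0 of 20 in this comparison, and 9, including Id1, were under an unadjusted p of 0.05. The call of Id2 was also lost without Ctrl-AM 1 (0.0533) and that of Tgm2 under TPM (0.0583). Between Tumor-macrophage and Tumor-AM 10 were higher and 6 lower, against 24.2% and 24.4%. The call with the smallest p was that of Thbs1, at 6.27, 7.51 and 5.70 FPKM in the tumor AM samples and 194, 145 and 199 in the TAM samples (4.58, adjusted p = 2.98e-09). Pdgfb, a growth factor (2.53), and Itgav, an integrin subunit that takes part in TGF-β activation (1.39), were higher too, while Id1, a target mainly of BMP Smads (-2.33), and Bhlhe40 (-1.31) were lower. Against Ctrl-AM 11 were higher and 5 lower (27.7% and 27.1% of all tested genes), with Thbs1 (5.49), Pdgfb (2.75), Itgav (1.58) and Itgb5 (1.55) among the higher and Id1 (-2.78) among the lower. Pdgfb was below 1 FPKM in all AM samples, and Cdkn2b, called lower against both AM groups, was below it in all TAM samples. Ltbp3, called higher against both AM groups, measured 0.327, 0.544 and 0.086 FPKM in the Ctrl-AM samples and 0.434, 0.512 and 1.27 in the Tumor-AM samples. Its TAM samples were at 2.06, 1.84 and 1.99. Pdgfb, Cdkn2b and Ltbp3 passed the filter only through the other population, so their calls lend no weight to these counts. The median log2 change of the 18 genes was 0.33, 0.56 and 1.03 in the 3 comparisons, beside 0.01, 0.00 and -0.01 for all tested genes. Most of these genes also respond to other signals.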

How the data were processed

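RNA sequencing of 9 sorted samples was analysed. Full-length cDNA was made with SMART-Seq HT. The authors sequenced single-end reads of 75 bases, mapped them to mm10 with TopHat2 2.1.1 and Bowtie2, and computed FPKM with Cufflinks, and the deposited FPKM values were used as given. The annotation and the use of strand were not given in the sources used here. The sample records name Cuffdiff 2.2.1 where the paper names Cufflinks, and whether the values were also scaled between samples was not given. FPKM without such scaling does not correct for abundant RNAs that take up reads in 1 population. Sums per sample ran from 635560 to 785745.

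Values were analysed as log2(FPKM + 1). Genes with at least 1 FPKM in at least 3 samples (10686) entered 1 limma fit (limma 3.58.1, R 4.3.3, trended prior, all 9 samples, 3 groups, two-sided, Benjamini-Hochberg over all tested genes, threshold 0.05), checked on simulated data. Errors are SE of the fit or SD of 3 samples. Reads were estimated from whole-read steps of low FPKM, of which 77.1% to 81.5% lay within 0.1 of a whole read, and cover counting error only. The members and gene lists were chosen with earlier results of these data known. Named were all members, Inhba, Cdkn2b, Acvr1b, Ltbp3 and up to 5 called genes with the smallest adjusted p per list and comparison. The counts of Smad target genes include 1 tested gene that is not reported here by name or drawn. Positions came from GENCODE vM21 (GRCm38), and no 75-base window of the 10 genes was shared with another gene. Smurf2 overlaps the miRNA gene Gm27322. The alternatives were other pseudocounts, filters, scalings and priors, the compared groups alone, a 2-fold minimum, a replicate block and leaving out each sample. Python 3.11.15 was used for tables and plots.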

Additional observations from a re-analysis of the deposited data

How the results depend on the processing

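Over 30 changes of the 10 genes and up to 18 alternatives each, 486 of 528 values kept their direction and their side of the threshold, 19 dropped below it, 14 passed it and 9 changed sign. The cause was not tested. The sign changes were all between Tumor-AM and Ctrl-AM in changes that were not called, with log2 changes under TPM of -0.068 for Smad4, -0.019 for Smad6 and -0.028 for Skil, under quantile normalization of -0.090 for Smad6, and without single samples of -0.096 to 0.0063 for Smad2, -0.029 to 0.16 for Smad4 and -0.085 to 0.10 for Smad6.

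TPM moved the median log2 change of all genes to -0.11, -0.08 and -0.22 (Tumor-AM minus Ctrl-AM, Tumor-macrophage minus Tumor-AM, Tumor-macrophage minus Ctrl-AM) and the higher and lower calls from 760 and 340 to 475 and 824, from 2588 and 2603 to 2129 and 3129, and from 2960 and 2900 to 2130 and 4409. Quantile normalization gave 607 and 446 in the first and 2656 and 3428 in the last. Median-ratio scaling moved them little, to 692 and 361, 2659 and 2535, and 2965 and 2898, with medians of 0.00, 0.01 and -0.01.

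Between Tumor-AM and Ctrl-AM, where 1100 genes were called, no filter gave 505, a 2-fold minimum 208 and leaving out samples 538 to 1254 (538 without Ctrl-AM 1, 690 without Ctrl-AM 2, 549 without Ctrl-AM 3, 733 without Tumor-AM 1 and 674 without Tumor-AM 3). The called members, 1, were 2 with the compared groups alone, 0 with a 2-fold minimum and 1 to 2 without single samples. The other pathway genes called, 3, were 1 with no filter, 1 with a 2-fold minimum and 1 to 4 without single samples, and the target genes, 6, were 0 and 1 under the first pair of settings. Between Tumor-macrophage and Tumor-AM, a 2-fold minimum left 1827 genes, 2 members, 8 other pathway genes and 10 targets, and a filter of 5 FPKM, which removes Smad3, Smad6, Smad7 and Smurf2, left 3 members and 10 other pathway genes. Leaving out samples gave 4 to 7 members there. Between Tumor-macrophage and Ctrl-AM, a 2-fold minimum left 2150 genes, 3 members and 9 other pathway genes, the 5 FPKM filter left 6 members, and leaving out samples gave 7 to 10.

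Deviations from the group means correlated weakly between samples of the same number (r from -0.06 to 0.16, over 0.1 in 2 of 9 pairs). For Tumor-AM with Tumor-macrophage r was 0.026, 0.096 and 0.109 for numbers 1, 2 and 3, and -0.101 to 0.006 between unlike numbers. These values, from 3 samples per group, cannot tell whether the numbers pair the samples. With the replicate number as a block, 938, 5069 and 5772 genes and 1, 6 and 9 members were called, Smad2 being lost against Ctrl-AM (adjusted p = 0.0615). Smad1 was lost between the AM groups (0.0585). At this depth the AM levels of Smad3, Smad6 and Smad7 rest on few reads.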

Other observations

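The surroundings of Smad3 and Smad6 on chromosome 9 were looked at since these neighbours were both higher in Tumor-macrophage. Within 500 kb of the pair the files hold 18 other genes, of which 11 were tested. Relative to Tumor-AM, 2 of the 11 were higher in Tumor-macrophage, namely 2300009A05Rik (log2 change 0.34, limma adjusted p = 0.0350) and the ribosomal protein gene Rpl4 (0.33), and 1 was lower, the MAP kinase kinase gene Map2k1 (-0.44), against 24.2% higher and 24.4% lower of all tested genes. Relative to Ctrl-AM, Tipin (0.39) and Zwilch (0.67) were higher and Map2k1 (-0.28) and Uchl4 (-0.66) lower, against 27.7% and 27.1% of all tested genes. These genes were named after their values were seen. Aagab, which lies next to Smad3, was at 22.2, 22.1 and 23.4 FPKM in Ctrl-AM, Tumor-AM and Tumor-macrophage and was not called.

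The genes whose profiles over the 9 samples were most like those of the 3 members with the widest range were listed by the root mean square difference of centred log2(FPKM + 1), as a description. For Smad3 they were Asb2 (0.0801), Chp2 (0.0926) and Tm4sf5 (0.0969), beside a median of 0.867 over all tested genes. For Smad7 they were Entpd7 (0.0751), Flot1 (0.0820) and Npc2 (0.0908), beside 0.571, and for Smad6 they were Galnt9 (0.110), Ankrd66 (0.115) and Sh2b3 (0.115), beside 0.610. Asb2, Chp2, Tm4sf5, Galnt9 and Ankrd66 were below 1 FPKM in the mean of both AM groups, as were the members they resemble. Flot1 (means of 18.5, 23.2 and 43.1 FPKM), Npc2 (124, 150 and 293) and Sh2b3 (10.1, 10.6 and 21.8) were at higher levels. Since the scale understates the change of low genes, their likeness is not one of FPKM ratios.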
